A study of Mus musculus with 2 samples.

Results

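Mir208a, Mir208b and Mir499 are microRNA genes that lie in introns of the myosin heavy chain genes Myh6, Myh7 and Myh7b. They were followed here in small RNA of the embryonic mouse heart. Members were chosen by identifier, by matching the stable Ensembl identifiers of the deposited gene tables to GENCODE, and all 3 were found among the 1973 microRNA genes of the tables. The tables come from microRNA sequencing of hearts of mouse strain B6NCrl at embryonic day 10.5, in 2 libraries that the labels call biological replicates. Replicate 2 was made from a pool of 51 embryos and replicate 1 from a pool of 69 embryos, male and female mixed and described as healthy, and the labels name no genotype, transgene or treatment. Whole hearts were pooled, so each value is an average over cardiac muscle, endothelium, endocardium and the other cells of the organ, and over the embryos of a pool. With a single group and no other age or tissue, the comparisons are between genes within a library and between the libraries.

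Myosin heavy chains are the motor proteins of the thick filament. Myh6 encodes the fast alpha chain and Myh7 the slow beta chain of heart muscle, which lie side by side in the genome. In the mouse, Myh7 predominates in the ventricles before birth and Myh6 after it, while Myh6 is also the chain of the atria. A microRNA in an intron is cut from the transcript of its host by Drosha and trimmed by Dicer to a short duplex, and 1 strand of the duplex, loaded on an Argonaute protein, pairs with messenger RNAs through its seed, bases 2 to 8. The myosin-intron microRNAs are known as markers of striated muscle. In adult mice miR-208a is needed for the rise of beta myosin under cardiac stress, and miR-208b and miR-499 act on regulators of slow-fibre genes such as Sox6.

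The mature sequences show what the 3 genes have in common and where they differ. They are printed with the seed in capitals, from RefSeq on GRCm38.p6, which has the same chromosome coordinates as mm10. The first group holds the arms known as the abundant ones, and it shares the bases UAAGAC:
miR-208b-3p: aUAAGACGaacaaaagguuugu
miR-208a-3p: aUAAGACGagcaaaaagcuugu
miR-499-5p: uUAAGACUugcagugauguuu
The opposite arms of the Mir208 hairpins share a different seed, and the opposite arm of Mir499 has its own:
miR-208b-5p: aAGCUUUUugcucgcguuaugu
miR-208a-5p: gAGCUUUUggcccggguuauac
miR-499-3p: gAACAUCAcagcaagucugugcu

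The seed UAAGACG was found in miR-208a-3p and miR-208b-3p only, among the 1738 mature microRNAs of the RefSeq table. UAAGACU, the seed of miR-499-5p, was found in that arm only, and the shorter UAAGAC (bases 2 to 7) in the 3 arms of the first group only. Counted from base 1 at the 5′ end, miR-208b-3p and miR-208a-3p were identical at 19 of 22 positions and differed by A10G, G16A and U18C, all outside the seed. Between miR-208b-3p and miR-499-5p 10 of 21 positions were identical, with G8U as the change inside the seed, and between miR-208a-3p and miR-499-5p 12 of 21. The 5p arms of the Mir208 genes were identical at 16 of 22 positions. The other mature microRNAs that share bases 2 to 7 with a member arm belong to Mir6415, Mir3101, Mir7223 and Mir448. Mir6415 and Mir7223 had no count in either library, Mir3101 had 3 in replicate 2 and 2 in replicate 1, and Mir448 had 2 in replicate 2 and 0 in replicate 1.

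The hairpins, with the mature arms in capitals and the 5′ end first, carry the arms on both sides of the loop:
Mir208b: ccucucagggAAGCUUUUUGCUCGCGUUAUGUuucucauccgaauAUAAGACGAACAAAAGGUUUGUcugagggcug
Mir208a: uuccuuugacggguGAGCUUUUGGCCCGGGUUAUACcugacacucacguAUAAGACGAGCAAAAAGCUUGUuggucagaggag
Mir499: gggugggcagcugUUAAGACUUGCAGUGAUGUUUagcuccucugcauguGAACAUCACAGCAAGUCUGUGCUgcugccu
On either strand, the longest run that Mir208a or Mir208b shares with any of 1004 other hairpins of the RefSeq table was 14 bases, between these genes themselves. It pairs bases 7 to 20 of miR-208a-3p with bases 1 to 14 of miR-208b-5p as reverse complements. On the same strand their longest shared run was 10 bases. The longest run of Mir499 was 12 bases, with Mir1968. None of the 3 shares 20 or more bases with another hairpin of the table, and matches elsewhere in the genome were not searched. Reads mapped to several places stand in a row of their own in the count tables and enter no gene. The counts are per hairpin, and the arms of a hairpin were not counted separately.

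Each hairpin lies within 1 intron of its host, on the strand of the host, and overlaps no other annotated gene (GENCODE M21, mm10). Mir208b (ENSMUSG00000077928.1) lies at chr14:54975700-54975776 on the minus strand, in intron 31 of Myh7, a gene of 41 exons in the transcripts that hold the hairpin. This intron is 461 bases long. Mir208a (ENSMUSG00000065432.1) lies at chr14:54949060-54949142 on the minus strand, in intron 29 of Myh6, which has 39 exons, and this intron is 542 bases long. Its hairpin is 26557 bases from that of Mir208b, and the host genes are 3756 bases apart. Mir499 (ENSMUSG00000076312.1) lies at chr2:155622880-155622958 on the plus strand, in intron 19 of Myh7b, which has 42 exons, and this intron is 481 bases long. The exons beside the Mir208b and Mir208a introns have the same lengths in Myh7 and Myh6, 197 bases upstream and 184 bases downstream. Those beside Mir499 have 77 and 88 bases.

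**Figure D1:**
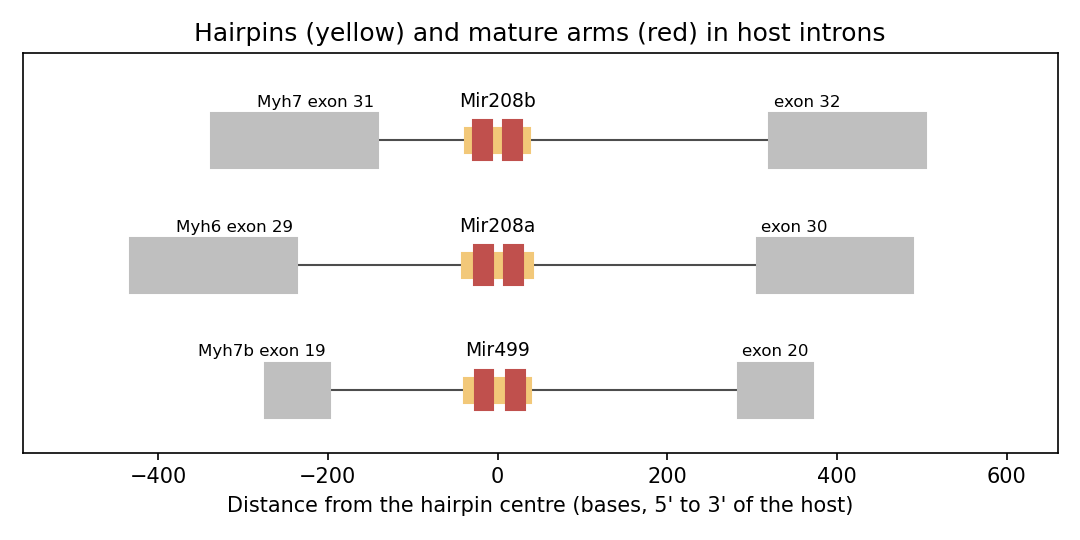
Map of the 3 hairpins in their host introns, drawn to scale with distance from the hairpin centre in bases along the direction of transcription. Grey boxes are the flanking exons, yellow boxes the hairpins of 77 (Mir208b), 83 (Mir208a) and 79 (Mir499) bases, and red boxes the mature arms; each hairpin lies nearer to the upstream exon (102, 195 and 158 bases) than to the downstream exon (282, 264 and 244 bases).

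All 3 genes were detected in both libraries, in the order Mir208b, Mir208a, Mir499. Levels are CPM of the own-strand counts of all genes. The sources used here do not name the strand of the count columns. The column taken as the strand of the gene held nearly all gene counts, 4789068 beside 229836 in the column taken as the opposite strand in replicate 2, and 4163656 beside 194185 in replicate 1. Intervals are exact (Clopper-Pearson) 95% intervals. They cover the counting error of reads alone and not the spread between pools. Reads carried no molecular identifiers and several can stem from 1 molecule, so the intervals can be too narrow for the sampling of molecules.

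Mir208b, the microRNA of the slow beta myosin gene, had 239297 counts in replicate 2, which is 49967 CPM (interval 49772 to 50163), and 87589 counts in replicate 1, which is 21037 CPM (20899 to 21175). Its mean was 35502 ± 20457 CPM (SD, n = 2), and it ranked 5 of 1973 genes in replicate 2 and 9 in replicate 1. Mir208a, the microRNA of the alpha myosin gene, had 83491 counts or 17434 CPM in replicate 2 (17317 to 17551), and 53445 counts or 12836 CPM in replicate 1 (12728 to 12945). The lowest value of Mir208b lay above the highest value of Mir208a, so these levels did not overlap between libraries. The mean of Mir208a was 15135 ± 3251 CPM, at rank 13 in replicate 2 and 17 in replicate 1. Mir499, from the Myh7b gene, had 7885 counts or 1646 CPM in replicate 2 (1610 to 1683), and 3613 counts or 868 CPM in replicate 1 (839.7 to 896.5). Its mean was 1257 ± 551 CPM, at rank 65 in replicate 2 and 109 in replicate 1, and both of its values lay below every value of the other members. In bulk tissue, fewer cells of a type and less RNA per cell cannot be told apart, so none of these levels is a level per muscle cell.

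**Figure D2:**
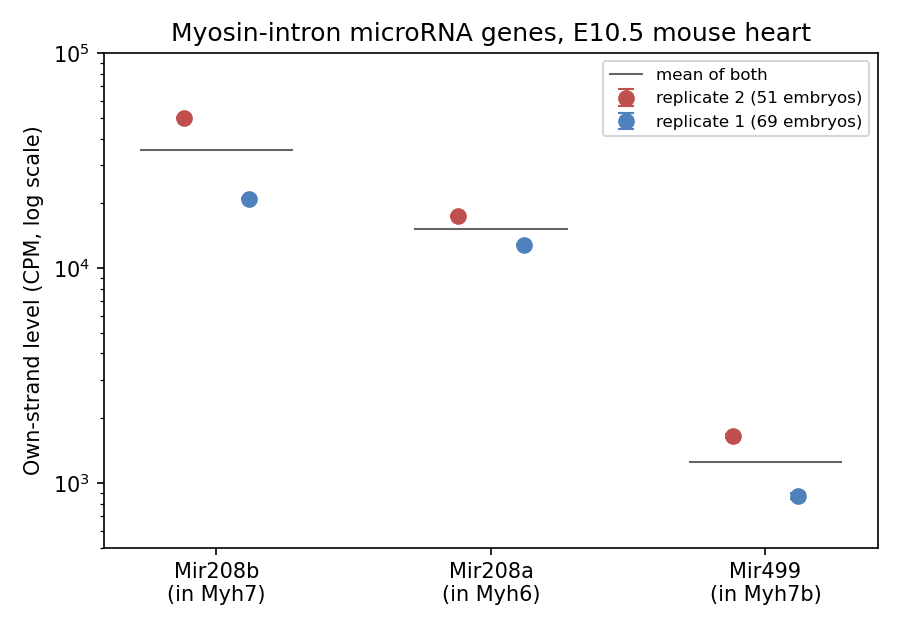
Own-strand level of each gene in CPM on a log scale, replicate 2 in red and replicate 1 in blue, with exact 95% intervals (mostly smaller than the points) and the mean of the libraries as a grey line. In replicate 2 Mir208b lies at 49967, Mir208a at 17434 and Mir499 at 1646 CPM, each above its value in replicate 1 of 21037, 12836 and 868 CPM.

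No read of the members was in the column taken as the opposite strand. The counts there were 0 in both libraries for all 3 genes, which allows up to 0.626 CPM in replicate 2 and 0.721 CPM in replicate 1. Of the 94 genes with a mean of at least 1000 CPM, members included, 84 had no opposite-strand count in either library, so this is the common state of abundant genes in these tables.

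Together the 3 genes held 6.90% of own-strand counts in replicate 2 (6.88 to 6.93) and 3.47% in replicate 1 (3.46 to 3.49). Mir208b made up 72.4% of this sum in replicate 2 (72.2 to 72.5) and 60.6% in replicate 1 (60.3 to 60.8). Mir208a made up 25.2% in replicate 2 (25.1 to 25.4) and 36.9% in replicate 1 (36.7 to 37.2). The share of Mir499 moved least, with 2.38% in replicate 2 (2.33 to 2.44) and 2.50% in replicate 1 (2.42 to 2.58).

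Ratios within a library need no scaling between libraries. Mir208b exceeded Mir208a 2.87-fold in replicate 2 (2.84 to 2.89) and 1.64-fold in replicate 1 (1.62 to 1.66), a mean log2 ratio of 1.12 ± 0.57 (SD, n = 2). Mir208b exceeded Mir499 30.3-fold in replicate 2 (29.7 to 31.0) and 24.2-fold in replicate 1 (23.4 to 25.1), a mean log2 ratio of 4.76 ± 0.23. Mir208a exceeded Mir499 10.6-fold in replicate 2 (10.3 to 10.8) and 14.8-fold in replicate 1 (14.3 to 15.3), a mean log2 ratio of 3.65 ± 0.34. The order of the 3 genes was the same in both libraries. Each mean log2 ratio was larger than its SD, which adds little, since 2 values of the same sign mostly give this. With 2 libraries, the smallest two-sided p of an exact sign-flip test is 0.5, so the ratios were not tested against 0. MicroRNA reads are whole mature molecules, so the counts were not divided by hairpin length. Per base of hairpin the mean log2 ratios were 1.22, 4.80 and 3.57. Ligation and amplification favour some small RNAs over others, so a ratio of counts between different sequences is a ratio of reads. No spike-in is given that would turn it into a ratio of molecules.

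The ratios differed between the libraries by more than counting error. For Mir208b over Mir208a the ratio was 1.75 times as large in replicate 2 as in replicate 1, a difference of 0.81 on the log2 scale (95% Wald interval 0.79 to 0.83). Its p in Fisher's exact test was too small for double precision. For Mir208b over Mir499 the difference was 0.32 (0.27 to 0.38; Fisher's exact p = 2.76e-27, and the same after Benjamini-Hochberg adjustment over the 3 pairs). For Mir208a over Mir499 it was -0.48 (-0.54 to -0.42; Fisher's exact p = 1.06e-59, adjusted p = 1.60e-59). Relative to each other, Mir208b thus stood highest in replicate 2 against replicate 1, Mir499 next and Mir208a lowest. These tests are two-sided and compare 2 libraries and not conditions. Pairs of other genes were not tested, so the results do not set the members apart. Of single genes, 61.6% of 424 passed the exact binomial test of counting error between the libraries.

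**Figure D3:**
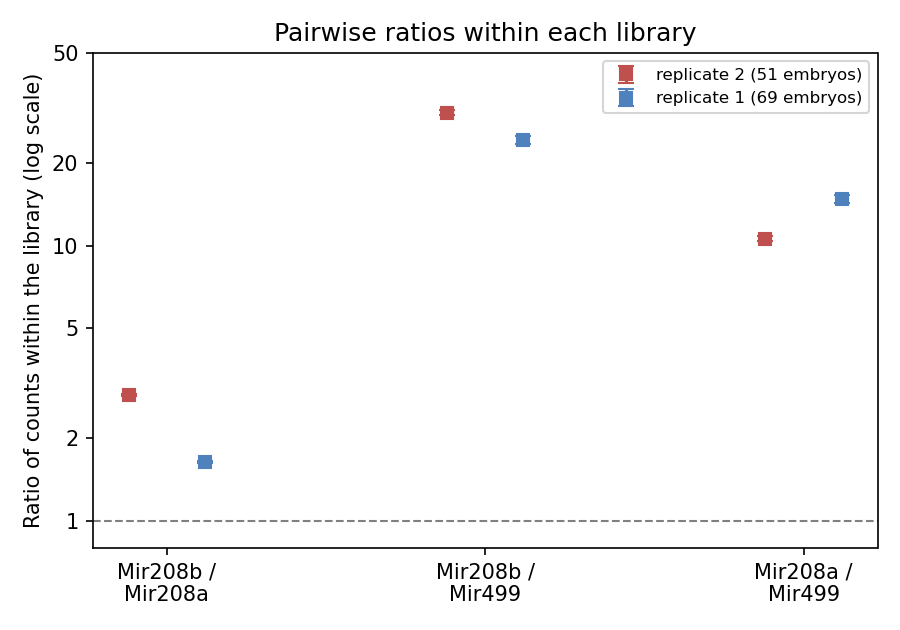
Ratio of counts of each pair of genes within replicate 2 (red) and replicate 1 (blue), on a log scale with exact 95% intervals; the dashed line marks equal counts. Mir208b over Mir208a (2.87 in replicate 2, 1.64 in replicate 1) and Mir208b over Mir499 (30.3 and 24.2 in the same order) are higher in replicate 2, and Mir208a over Mir499 (10.6 in replicate 2, 14.8 in replicate 1) is lower.

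All 3 genes were higher in replicate 2 than in replicate 1. The test took in the 424 genes that reached 10 counts in 1 library or both, using an exact two-sided conditional binomial test with TMM library sizes from edgeR and Benjamini-Hochberg adjustment over the 424. The test covers counting error and not the spread between pools. Mir208b was 2.87-fold higher (log2 ratio 1.52, exact 95% interval 1.51 to 1.53), Mir499 2.29-fold (1.20, 1.14 to 1.26) and Mir208a 1.64-fold (0.72, 0.70 to 0.73), and their adjusted p were too small for double precision. Of all tested genes 30.4% were called higher in replicate 2 and 31.1% lower, 61.6% in all, so calls were common in both directions. The log2 ratio was larger than that of Mir208b in 10 of 424 genes (2.36%), than that of Mir499 in 23 (5.42%) and than that of Mir208a in 52 (12.3%). These places moved with how genes of few counts were treated. With no filter they were 90 (12.2%), 116 (15.7%) and 167 (22.6%) of 740 genes with a count, and with a prior count of 5 in the ratios they were 5, 13 and 46 of 424, for Mir208b, Mir499 and Mir208a. The median gene differed 1.38-fold between the libraries in either direction. With TMM scaling the coefficient of variation over the libraries was 68.4% for Mir208b, 55.6% for Mir499 and 34.4% for Mir208a, beside a common biological coefficient of variation of 37.2% over all tested genes on the same scaling (edgeR, 1 group of 2 libraries). With total counts the members' values were 57.6%, 43.8% and 21.5%.

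With total counts as the scaling, the median of all tested genes moved by -0.27 on the log2 scale, and 15.6% of genes were called higher and 46.2% lower (66 genes higher and 196 lower, beside 129 higher and 132 lower with TMM). All 3 members stayed called higher, Mir208b 2.38-fold, Mir499 1.90-fold and Mir208a 1.36-fold. A scaling shifts all genes alike and leaves their order as it was.

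**Figure D4:**
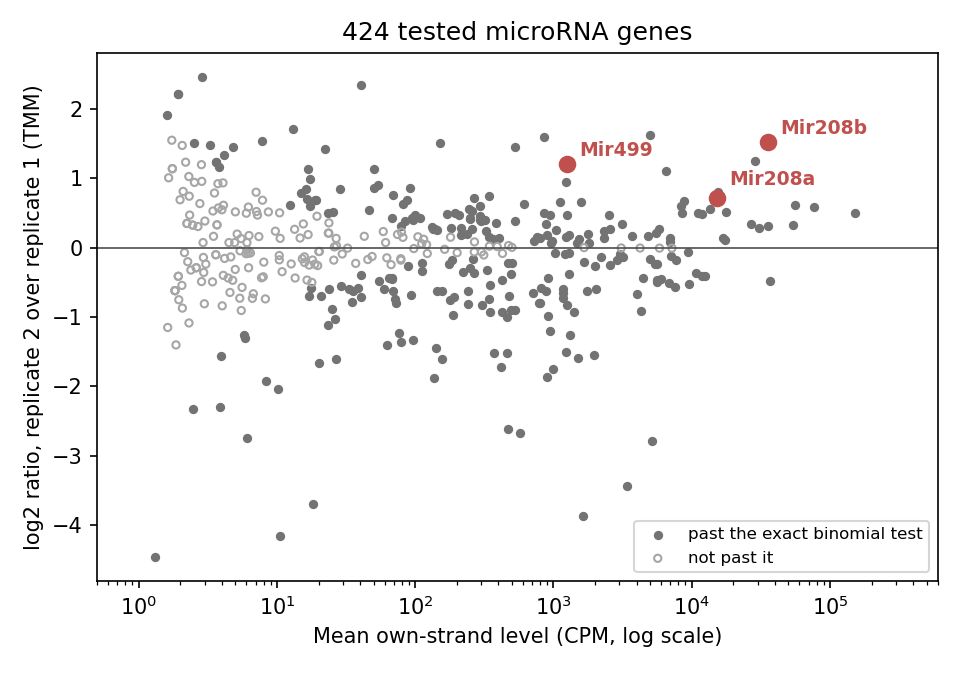
Each point is 1 of 424 tested microRNA genes, with mean level in CPM on a log scale and the log2 ratio of replicate 2 over replicate 1 after TMM scaling; filled points passed the exact binomial test at an adjusted p of 0.05. Mir208b at 1.52, Mir499 at 1.20 and Mir208a at 0.72 are marked in red, all above 0, with 10, 23 and 52 genes above them.

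The other striated muscle microRNAs of the list were counted at far lower levels. The list holds 7 other genes that are in the tables, and they summed to 125 CPM in replicate 2 and 120 CPM in replicate 1. The myosin-intron genes therefore made up 99.8% of the counts of the list in replicate 2 and 99.7% in replicate 1. These shares do not give the make-up of muscle microRNA. Mir1a-1, Mir133a-1 and Mir133a-2 give rise to the abundant miR-1 and miR-133a of heart muscle, but have near-identical copies, and reads that map to several places were not counted to genes. Reads of that kind held 23.5% of all reads in replicate 2 and 23.3% in replicate 1.

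Of the 7 genes 5 were tested, 2 were called higher in replicate 2 and 0 lower. Mir486, which lies in an intron of Ank1 and is shared by muscle and red blood cells, had 101 CPM in replicate 2 and 93.2 CPM in replicate 1 (log2 ratio 0.39, adjusted p = 0.000158 by the exact binomial test across all genes), and was not called with total counts as the scaling. Mir133a-1 had 15 counts in replicate 2 and 3 in replicate 1 (log2 ratio 2.22, exact interval 0.57 to 4.82). Mir206, the skeletal muscle member of the miR-1 family, had 10.4 CPM in replicate 2 and 14.9 CPM in replicate 1, and was not called. Mir1b had 26 counts in replicate 2 and 19 in replicate 1, and Mir1a-1 had 15 in replicate 2 and 17 in replicate 1, and neither was called. Counted over both strands Mir1b was called higher too, with 138 opposite-strand counts in replicate 2 and 65 in replicate 1. The opposite-strand counts exceed its own-strand counts and are left out of the sums of the list. Which gene they stem from was not tested, and Mir1a-2 of the list is not in the tables. Mir133b had 7 counts in replicate 2 and 9 in replicate 1, Mir133a-2 had 1 in each library, and both were under the minimum of 10 counts.

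Each member lay below the top genes of the endothelial and smooth muscle lists in both libraries, and stood higher against them in replicate 2. Mir126a, the endothelial microRNA, had 55504 CPM in replicate 2 and 53306 CPM in replicate 1. The 3 members together were 1.24 times Mir126a in replicate 2 and 0.652 times in replicate 1. Mir208b alone was 0.900 times Mir126a in replicate 2 (0.895 to 0.905) and 0.395 times in replicate 1 (0.392 to 0.398). Mir208a was 0.314 times in replicate 2 (0.312 to 0.317) and 0.241 times in replicate 1 (0.239 to 0.243), and Mir499 was 0.0297 times in replicate 2 (0.0290 to 0.0303) and 0.0163 times in replicate 1 (0.0157 to 0.0168). Each member was thus higher relative to Mir126a in replicate 2, by 2.28 times for Mir208b, 1.30 times for Mir208a and 1.82 times for Mir499.

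Mir143, the top gene of the smooth muscle list, had 85011 CPM in replicate 2 and 68864 CPM in replicate 1. The cells that held Mir143 at E10.5 were not determined, so its ratios to the members are ratios of genes and not of cell types. Mir208b was 0.588 times Mir143 in replicate 2 (0.585 to 0.591) and 0.305 times in replicate 1 (0.303 to 0.308), Mir208a was 0.205 times in replicate 2 (0.204 to 0.207) and 0.186 times in replicate 1 (0.185 to 0.188), and Mir499 was 0.0194 times in replicate 2 (0.0189 to 0.0198) and 0.0126 times in replicate 1 (0.0122 to 0.0130). Every one of these ratios was higher in replicate 2, and that of Mir208a moved least, by 1.10 times.

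Most tested genes of the lists named for tissues other than the heart moved the other way. Whether heart cells held these microRNAs was not determined. All 5 tested Hox-cluster microRNAs, which mark position along the trunk, were called lower in replicate 2, and all 6 of the list had counts in both libraries. The list summed to 0.205% of counts in replicate 2 and 1.79% in replicate 1. All 7 epithelial genes were lower (0.209% in replicate 2 and 0.707% in replicate 1), as were all 3 of the sensory-organ cluster (0.163% in replicate 2 and 0.569% in replicate 1). Of the 4 tested genes of the liver and gut list 3 were lower and 1, Mir194-1, was higher (log2 ratio 1.42). The list sums were 0.0293% in replicate 2 and 0.335% in replicate 1. The split holds for the genes chosen for the list, which does not hold Mir215, and Mir215 was called higher in replicate 2 as well. None of the listed genes of these 4 lists was at 0. Both tested neural genes, Mir219a-1 and Mir219a-2, were lower (list sums of 0.00376% in replicate 2 and 0.00701% in replicate 1). The neural genes Mir9-2, Mir124a-1, Mir124a-2 and Mir124a-3 were at 0 in both libraries, and Mir9-3 had 7 counts in each. Mir9 and Mir124a have several gene copies in the list, and reads that map to several places were not counted to genes. These counts of 0 therefore do not show absence. The part of these markers in the difference of the members was not tested. Leaving the Hox, epithelial, liver and sensory genes out of the totals removes their own counts only, and no other microRNA of the same tissues. With those totals Mir208b was 2.31-fold, Mir499 1.84-fold and Mir208a 1.32-fold higher in replicate 2, beside 2.38-fold, 1.90-fold and 1.36-fold with all genes in the totals.

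Marker lists named for other cells of the heart went partly with the members, and their shares of counts are not shares of cells. Both smooth muscle genes, Mir143 and Mir145a, were called higher (8.60% in replicate 2 and 6.97% in replicate 1), as was Mir126a. Of the red blood cell genes Mir451a was called higher and Mir144 was not called (0.161% in replicate 2 and 0.107% in replicate 1). Under total counts, Mir143, Mir145a, Mir126a and Mir451a were called higher as well, and Mir144 was called lower (log2 ratio -0.22, beside 0.06 with TMM). Of 3 tested leukocyte genes Mir223 was called lower under both scalings, and Mir155 was called higher with TMM (log2 ratio 0.28) but not with total counts (0.0032). The leukocyte list summed to 0.0339% of own-strand counts in replicate 2 and 0.0459% in replicate 1. This sum leaves out the reads at Mir142b, which had 0 own-strand counts but 8151 opposite-strand counts in replicate 2 and 10687 in replicate 1, more than the whole list on its own strand (1623 in replicate 2 and 1913 in replicate 1).

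**Figure D5:**
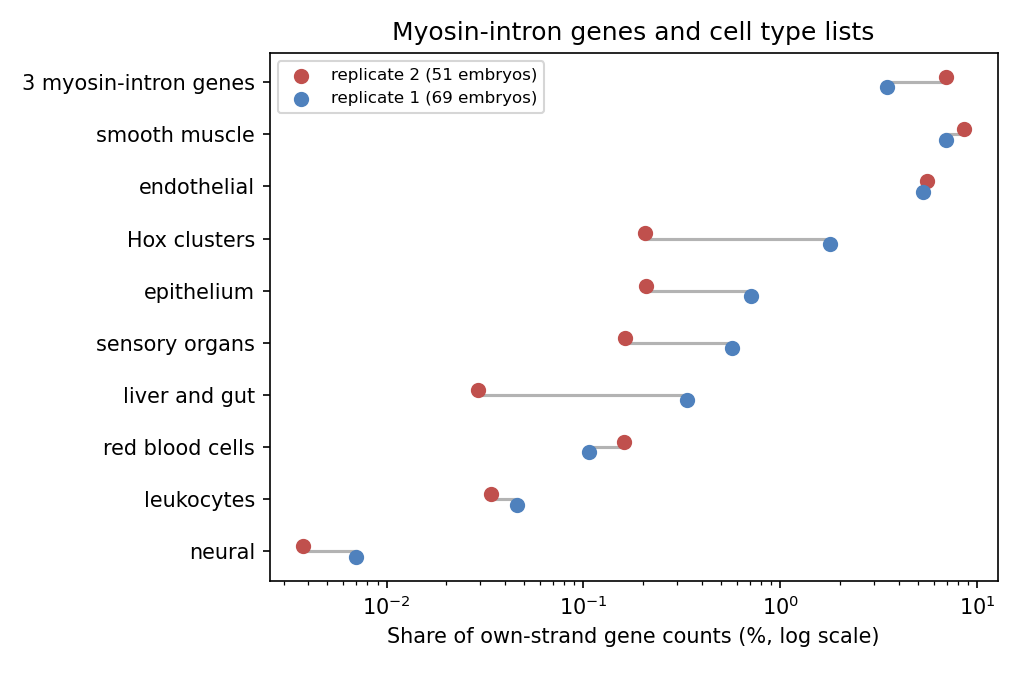
Summed share of own-strand counts in percent on a log scale, for the 3 myosin-intron genes and for 9 marker lists, with replicate 2 in red and replicate 1 in blue. In replicate 2 the myosin-intron genes lie at 6.90%, between the smooth muscle (8.60%) and endothelial (5.55%) lists, and in replicate 1 at 3.47%, below both (6.97% and 5.33%), while the Hox, epithelial, sensory and liver lists lie lower in replicate 2.

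In mean level, Mir208b stood between Mir99a (35927 ± 749 CPM) and Mir26b (30577 ± 40.3 CPM; SD, n = 2). Both lie within the spread of Mir208b, and its place among them turned between the libraries: 49967 CPM was above both in replicate 2, and 21037 CPM below both in replicate 1. Mir208a stood between Mir23a (15396 ± 3931 CPM) and Mir30a (13538 ± 1900 CPM), whose means lie within its spread. Within each library Mir208a lay above Mir30a, which had 14881 CPM in replicate 2 and 12194 CPM in replicate 1. Mir23a lay above Mir208a in replicate 2 (18175 CPM) and below it in replicate 1 (12616 CPM). Mir23a has a near-identical copy, Mir23b. Mir499 stood between Mir134 (1262 ± 649 CPM) and Mir501 (1254 ± 124 CPM). Mir134 had 803 CPM in replicate 2 and 1721 CPM in replicate 1, the opposite direction to Mir499.

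The genes whose replicate ratio was most like that of each member, among tested genes with at least 100 counts over the libraries, are given by the gap between the log2 ratios, a likeness over 2 libraries only. For Mir208b they were Mir215 (gap 0.02), Mirlet7d (0.07) and Mir98 (0.08), of which the last 2 belong to the let-7 family. Their means of 150, 856 and 526 CPM lay far below that of Mir208b. For Mir208a they were Mir3102 (gap below 0.01), Mir5113 (0.01) and Mir29a (0.03), with means of 264, 16.4 and 341 CPM. For Mir499 they were Mir351 (0.05), Mirlet7a-2 (0.06) and Mir30c-2 (0.07), with means of 28735, 16.6 and 50.7 CPM. No member was among the 3 nearest genes of another member.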

How the data were processed

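MicroRNA sequencing libraries of small RNA (size range below 30 in the labels) were made by the authors from E10.5 mouse hearts. The deposited values are raw read counts per microRNA gene, on mm10 with GENCODE M4 per the deposited README text; the aligner and counting tool are not given in the sources used. The count over both strands equalled the own-strand plus the opposite-strand count for all 1973 genes. Own-strand counts were used, with the strand of each column inferred from the values. Rows without a gene stayed out of the totals: 25.5% of reads in replicate 2 and 26.3% in replicate 1 were unmapped, 23.5% and 23.3% mapped to several places, and 7.41% and 8.98% lay outside the listed genes. Symbols came from GENCODE M21 (1894 of 1973 identifiers matched) and sequences from RefSeq (GRCm38.p6), in which all 3 genes matched.

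Library sizes were scaled with TMM (edgeR 4.0.16), and alternatively by total counts or with size factors of DESeq2 1.42.0. Exact binomial tests, Fisher's exact tests and intervals were computed with scipy 1.17.1. Log2 ratios add a prior count of 0.5, and calls use an adjusted p of 0.05. A count of 0 allows up to 3 counts. Labels of separate pools were taken as separate samples. Besides the members, the genes named are those of the striated muscle list, the 3 genes nearest in replicate ratio and the neighbours in mean CPM of each member, genes that share bases 2 to 7, and the top genes of marker lists; other list genes were named after their values were seen. The members and lists were chosen with earlier results of these data known.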

Additional observations from a re-analysis of the deposited data

How the results depend on the processing

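Under every alternative tried the pairwise ratios of the 3 genes, their differences between the libraries and the replicate ratios kept their direction, and those with a test kept their side of the threshold. The mean levels moved by less than their SD, with 1 exception given here. The alternatives were counts over both strands, DESeq2 size factors or total counts, totals without the most abundant gene (Mir335) or without the Hox, epithelial, liver and sensory genes, no filter, prior counts of 0 and 5, and counts per base of hairpin. The number of genes called between the libraries ran from 254 to 270, with 261 as reported. As CPM of all mapped reads, those mapped to several places included, an alternative added after seeing the data, Mir208a had 8706 instead of 15135, a move larger than its SD, since the total is larger by construction. Mir208b fell to 20523 and Mir499 to 725 as well, but within their SD. The SD was 57.6% of the mean for Mir208b and 43.8% for Mir499, beside 21.5% for Mir208a. The exception thus reflects the smaller SD of Mir208a. Taking 1 replicate alone, the mean log2 ratio ranged from 0.71 to 1.52 for Mir208b over Mir208a, from 4.60 to 4.92 for Mir208b over Mir499 and from 3.40 to 3.89 for Mir208a over Mir499. A single library leaves no comparison between libraries. No paired analysis was possible because the labels give 1 group. The lowest count of a member in a library was 3613, so counting error was small beside the difference between the pools.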
